A study of Mus musculus with 8 samples.

Results

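Pmp22, Il7r, Slamf7, Clec4d, Bhlhe41, Sirpb1c, Dab2, Mgst1 and Celf2 are 9 genes of myeloid cells that were chosen by their measured signal, which was higher in osteoclast cultures expressing a mutant phosphatidylserine synthase 1 (PSS1) than in the other osteoclast cultures. They are 9 of the 19505 mouse genes with a single symbol on the array and 9 of the 10871 genes counted as measured. Each was represented by 1 transcript cluster, a set of probes spread along the transcripts of a gene. Higher signal in the mutant PSS1 arrays is therefore how these genes were found, and the differences that chose them are given below as values without a test.

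Bone marrow cells of C57BL6/J mice were grown under 4 conditions, each called a culture here. RNA was taken on days 6 and 3 of treatment, with 1 array for each culture and day. The sample titles do not say whether both days came from the same dish. The PSS1-LMS and PSS1-WT cultures received 50 ng/ml of the survival factor M-CSF and 100 ng/ml of RANKL, the cytokine that drives osteoclast formation, and a day later a retrovirus carrying mutant (LMS) or wild-type PSS1. The M-CSF+RANKL culture had the same 2 factors. The sample titles of the M-CSF culture name M-CSF only, while the treatment protocol given for these samples mentions RANKL. The titles were followed here. The labels do not give the LMS mutation, the species of the insert, or whether cultures without PSS1 received an empty virus, and the 8 arrays hold no replicate of any group. All values are log2 signals as deposited, so a difference of 1 is a doubling.

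The 9 genes encode proteins of several kinds. Il7r is the α chain of the interleukin-7 receptor and also part of the receptor for the cytokine TSLP, Slamf7 is a self-binding receptor of the SLAM family on immune cells, Clec4d is a C-type lectin that recognises microbial glycolipids and pairs with Clec4e (Mincle), and Sirpb1c belongs to the signal regulatory proteins. Pmp22 is a small tetraspan membrane protein, best known from peripheral myelin, Dab2 links receptors of the LDL receptor family to clathrin for uptake, and Mgst1 is a membrane-bound glutathione transferase. Bhlhe41 is a transcription repressor that binds E-boxes and acts in the circadian clock, and Celf2 binds RNA and regulates splicing and stability. M-CSF alone turns bone marrow precursors into macrophages, and RANKL diverts them to osteoclasts, large multinucleate cells that resorb bone and lose much of the macrophage programme as they form.

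Promoter windows of 250 bases before the transcription start, taken from RefSeq on GRCm38.p6, were read for the genes with a single listed start, which were Il7r, Slamf7, Clec4d, Bhlhe41 and Sirpb1c. The 3 windows below are shown because each holds a motif of a factor family active in myeloid cells or, for Bhlhe41, of its own family. Capitals mark the matches.
Slamf7 (chr1:171649000-171649249, minus strand): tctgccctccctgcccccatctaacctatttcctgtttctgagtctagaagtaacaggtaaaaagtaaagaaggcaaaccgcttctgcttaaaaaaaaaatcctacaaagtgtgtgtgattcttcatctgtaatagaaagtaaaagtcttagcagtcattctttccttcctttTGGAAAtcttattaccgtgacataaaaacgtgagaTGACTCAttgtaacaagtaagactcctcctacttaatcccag
Clec4d (chr6:123261857-123262106, plus strand): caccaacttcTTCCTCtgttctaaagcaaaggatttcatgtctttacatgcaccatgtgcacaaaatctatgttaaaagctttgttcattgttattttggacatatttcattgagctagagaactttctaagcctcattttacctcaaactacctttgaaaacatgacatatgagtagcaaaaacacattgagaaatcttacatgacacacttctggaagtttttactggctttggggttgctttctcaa
Bhlhe41 (chr6:145865421-145865670, minus strand): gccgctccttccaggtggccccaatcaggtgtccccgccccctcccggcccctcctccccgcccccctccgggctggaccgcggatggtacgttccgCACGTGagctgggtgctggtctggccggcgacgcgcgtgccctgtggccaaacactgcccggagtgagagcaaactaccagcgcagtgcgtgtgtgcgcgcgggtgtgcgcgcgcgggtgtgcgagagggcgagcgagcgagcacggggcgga
The motifs searched on both strands were TGANTCA (AP-1), CACGTG (E-box), GAGGAA (ETS, the family of PU.1) and TGGAAA (NFAT), none overlapping another in these windows. Slamf7 held the AP-1 letters 42 to 36 bases and the NFAT letters 77 to 72 bases before its start. Clec4d held the ETS letters on the minus strand 240 to 235 bases before its start, and Bhlhe41, whose protein binds E-boxes, held the E-box letters 153 to 148 bases before its own. The Il7r and Sirpb1c windows held none of the 4. Each motif was thus in 1 of 5 windows, against 6.73% (AP-1), 6.04% (E-box), 23.4% (ETS) and 18.6% (NFAT) of all 32536 windows of this length. The Bhlhe41 window was rich in G and C (73.6%), and the other 4 lay between 35.2% and 44.0%, against a median of 52.4% over all windows.

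The median feature of an array was at 4.80 to 4.93. The brightest of 23 background probe sets reached 5.54 to 7.13 depending on the array, and all 8 values of each of the 9 genes lay above the brightest on their own array. Ptdss1, which encodes PSS1, stood at 17.50 and 18.79 in PSS1-LMS cells on days 6 and 3 and at 18.06 and 18.91 in PSS1-WT cells, against 9.56 to 10.36 on the 4 other arrays, so the arrays labelled with PSS1 were the high ones. All 15 osteoclast markers were higher in M-CSF+RANKL than in M-CSF cultures, with limma adjusted p under the threshold of 0.05, and 13 of 14 macrophage markers were lower.

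Among the surface receptors of immune cells, Il7r had log2 signals of 9.38 and 8.32 in PSS1-LMS cultures on days 6 and 3, 8.34 and 7.82 in PSS1-WT cultures, 7.81 and 6.46 in M-CSF+RANKL cultures, and 11.60 and 11.22 in M-CSF cultures. Slamf7 had 8.33 and 7.45 in PSS1-LMS, 7.68 and 6.75 in PSS1-WT, 6.54 and 6.30 in M-CSF+RANKL, and 13.22 and 9.67 in M-CSF cultures. Clec4d had 14.24 and 13.13 in PSS1-LMS, 13.37 and 12.73 in PSS1-WT, 12.47 and 11.97 in M-CSF+RANKL, and 17.58 and 16.81 in M-CSF cultures. On each day these 3 genes kept 1 order, PSS1-LMS above PSS1-WT above M-CSF+RANKL, with M-CSF far above all of them. Their PSS1-LMS value on day 3 was below the PSS1-WT value on day 6, so the cultures overlapped once days were pooled. Sirpb1c had 8.94 and 9.18 in PSS1-LMS, 7.90 and 7.97 in PSS1-WT, 7.55 and 7.83 in M-CSF+RANKL, and 12.08 and 12.39 in M-CSF cultures. Both of its PSS1-LMS arrays lay above all 4 other RANKL arrays, and both PSS1-WT arrays lay just above the M-CSF+RANKL arrays. Sirpb1c has close paralogs, and signal from them on its probes cannot be told apart from its own.

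Of the membrane and trafficking proteins, Pmp22 had 13.39 and 11.94 in PSS1-LMS cultures on days 6 and 3, 11.54 and 10.61 in PSS1-WT, 11.74 and 9.38 in M-CSF+RANKL, and 17.65 and 16.32 in M-CSF cultures. Dab2 had 12.01 and 11.18 in PSS1-LMS, 10.34 and 10.13 in PSS1-WT, 10.42 and 10.47 in M-CSF+RANKL, and 18.15 and 17.82 in M-CSF cultures. Mgst1 had 9.12 and 8.44 in PSS1-LMS, 7.71 and 7.23 in PSS1-WT, 7.25 and 7.68 in M-CSF+RANKL, and 16.05 and 13.16 in M-CSF cultures. For all 3 both PSS1-LMS arrays were above the 4 other RANKL arrays. Among those 4, PSS1-WT and M-CSF+RANKL overlapped for Pmp22 and Mgst1, and PSS1-WT was slightly the lower for Dab2.

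Of the regulators of transcription and RNA, Bhlhe41 had 8.91 and 8.08 in PSS1-LMS cultures on days 6 and 3, 8.21 and 7.65 in PSS1-WT, 7.38 and 6.82 in M-CSF+RANKL, and 12.64 and 11.79 in M-CSF cultures. It followed the same order as Il7r, Slamf7 and Clec4d. Celf2 had 8.62 and 7.94 in PSS1-LMS, 7.24 and 6.80 in PSS1-WT, 7.77 and 7.20 in M-CSF+RANKL, and 12.57 and 11.62 in M-CSF cultures. Its lowest RANKL culture on each day was PSS1-WT, not M-CSF+RANKL.

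**Figure D1:**
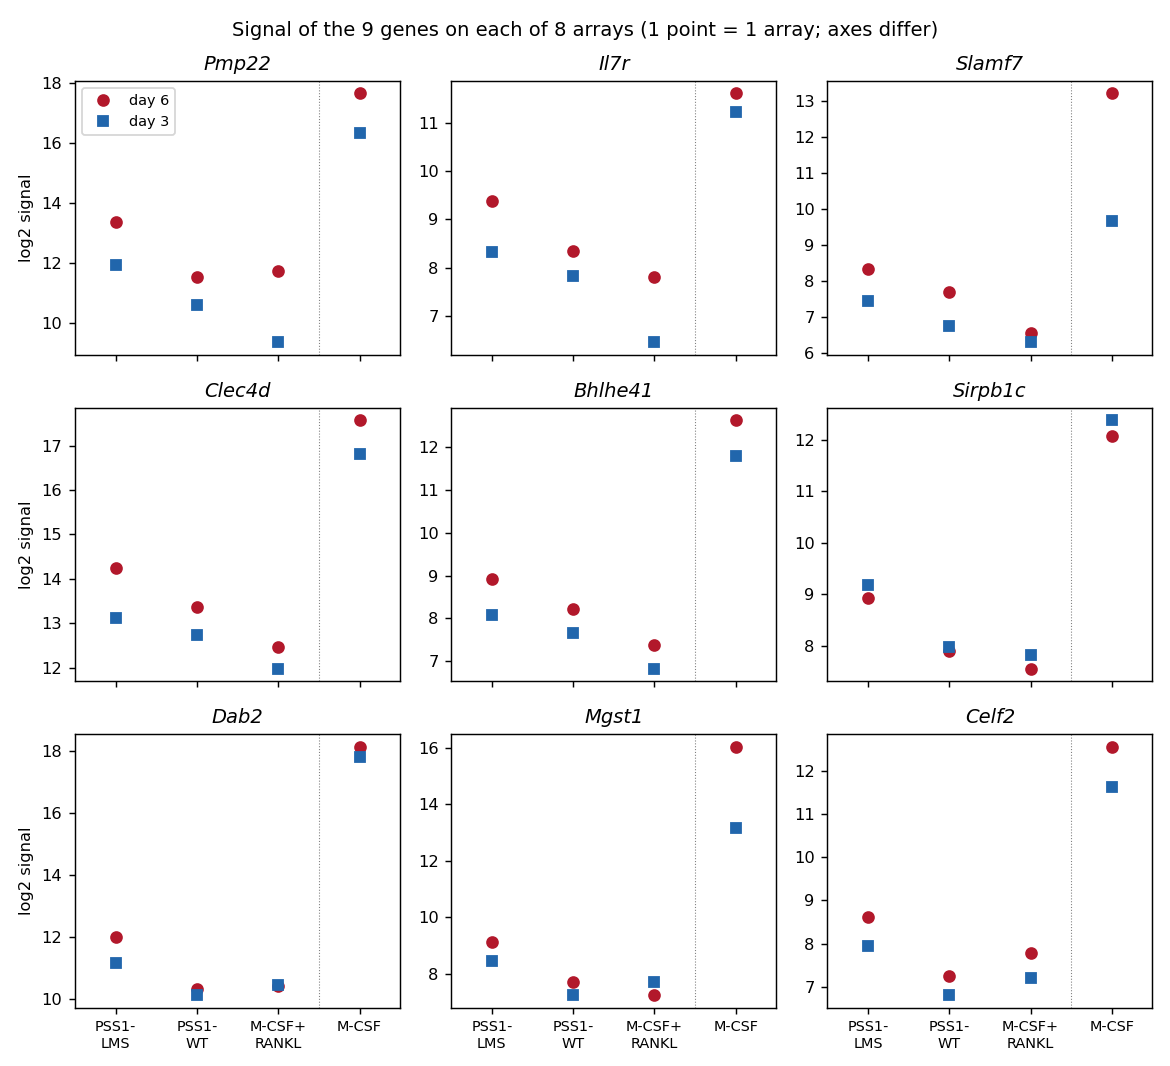
Log2 signal (vertical axis, a scale of its own for each gene) of the 9 genes on each of 8 arrays, by culture, with day 6 as circles and day 3 as squares; 1 point is 1 array. Both M-CSF points lie above all 6 RANKL points in each of the 9 panels, and PSS1-LMS is the highest of the RANKL cultures on each day.

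The differences that define the group were between 0.71 (Dab2, day 3) and 2.56 (Pmp22, day 3) for PSS1-LMS minus M-CSF+RANKL, and between 0.40 (Clec4d, day 3) and 1.85 (Pmp22, day 6) for PSS1-LMS minus PSS1-WT. Averaged over the days, PSS1-LMS minus M-CSF+RANKL was 2.10 for Pmp22 (4.30-fold), 1.72 for Il7r (3.28-fold), 1.47 for Slamf7, 1.46 for Clec4d, 1.39 for Bhlhe41, 1.37 for Sirpb1c, 1.31 for Mgst1, 1.15 for Dab2 and 0.80 for Celf2 (1.74-fold). PSS1-LMS minus PSS1-WT averaged 1.59 for Pmp22 (3.01-fold), 1.36 for Dab2, 1.31 for Mgst1, 1.26 for Celf2, 1.12 for Sirpb1c, 0.77 for Il7r, 0.67 for Slamf7, 0.64 for Clec4d and 0.56 for Bhlhe41 (1.48-fold). For Dab2 and Celf2 the PSS1-WT culture was the lower of the other RANKL cultures, and for Il7r, Slamf7, Clec4d, Bhlhe41 and Sirpb1c it was M-CSF+RANKL. These 2 sets of differences share the PSS1-LMS arrays. All 9 genes had PSS1-LMS above both other cultures on both days, as did 12.7% of all measured genes, a count that the choice of the genes fixed.

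Ordered by the smallest of the 4 differences between PSS1-LMS and the other RANKL cultures, Pmp22 came in position 2 with 1.33, Sirpb1c in position 5 with 1.04, and Mgst1, Celf2, Dab2 and Slamf7 in positions 15 to 25 with 0.75, 0.74, 0.71 and 0.64. Il7r, Bhlhe41 and Clec4d came in positions 63, 101 and 124, with 0.50, 0.43 and 0.40. The 5 genes outside the group with the largest smallest difference were Cd81 (1.35, position 1), a tetraspanin, Ncf1 (1.06), a subunit of the phagocyte NADPH oxidase, Tlr13 (1.04) and Tlr7 (0.996), endosomal receptors for RNA, and Cd93 (0.96), a surface glycoprotein of myeloid and endothelial cells. The choice thus did not follow a single threshold of this measure, and 6 of the 9 genes fell within the first 30.

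**Figure D2:**
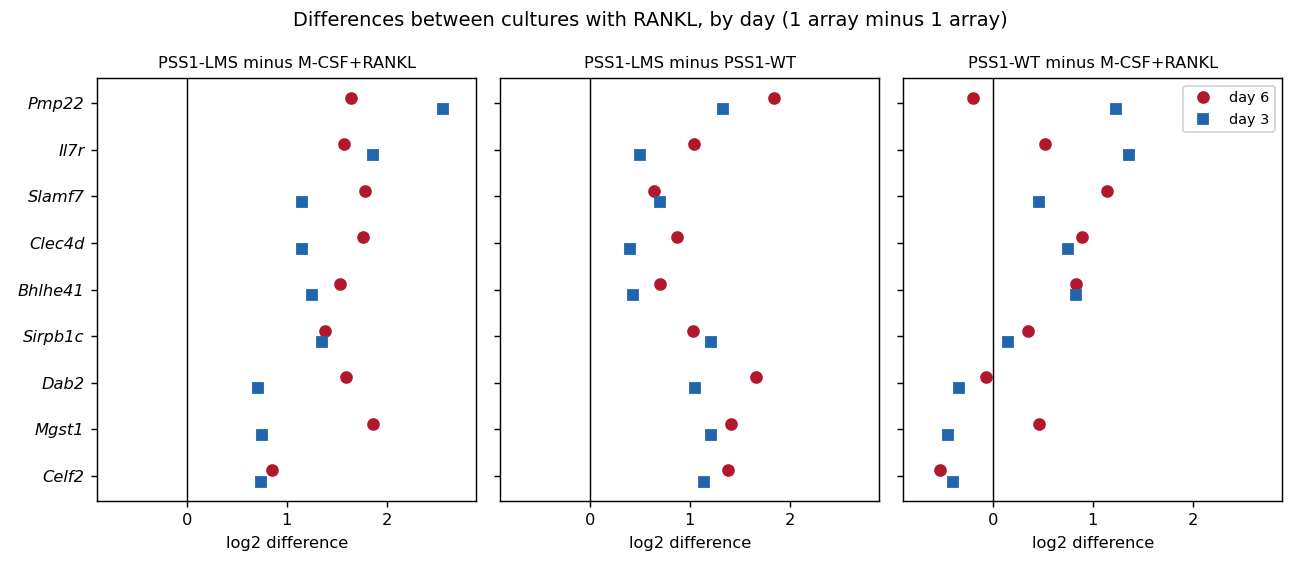
Log2 differences between pairs of cultures with RANKL (horizontal axes), with day 6 as circles and day 3 as squares, each 1 array minus 1 array. The left and middle panels show the differences that chose the 9 genes, all above 0, and the right panel shows PSS1-WT minus M-CSF+RANKL, where 5 genes are above 0 on both days, Dab2 and Celf2 are below 0 on both, and Pmp22 and Mgst1 change sign.

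The M-CSF arrays played no part in the choice, and in them all 9 genes were far higher. M-CSF+RANKL minus M-CSF, averaged over the days, was -7.54 ± 0.32 for Dab2 (186-fold lower, adjusted p = 7.09e-06), -7.14 ± 0.68 for Mgst1 (141-fold lower, adjusted p = 0.000225) and -6.43 ± 0.38 for Pmp22 (85.9-fold lower, adjusted p = 2.93e-05), with standard errors from limma. It was -5.11 ± 0.28 for Bhlhe41 (34.6-fold lower), -5.02 ± 0.70 for Slamf7 (32.5-fold lower, limma adjusted p = 0.00156), -4.97 ± 0.30 for Clec4d, -4.61 ± 0.29 for Celf2, -4.54 ± 0.28 for Sirpb1c and -4.28 ± 0.34 for Il7r (19.4-fold lower). For Mgst1 and Slamf7 the average hides a difference between days. On days 6 and 3 Mgst1 was 444-fold and 44.6-fold lower, and Slamf7 102-fold and 10.35-fold lower. All 9 passed the test as lower with RANKL, against 12.4% of measured genes lower and 14.1% higher. In 9 of 9 both M-CSF arrays lay above all 6 RANKL arrays, as for 20.8% of measured genes, and the distance from the lower M-CSF array to the highest RANKL array ran from 1.34 (Slamf7) to 5.81 (Dab2). In RNA of whole cultures, fewer cells carrying a transcript and less of it in each cell cannot be told apart.

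Because M-CSF+RANKL was a low side of the choice, this difference leans low. PSS1-WT minus M-CSF averaged between -7.75 (Dab2) and -3.33 (Il7r), and the PSS1-LMS arrays, the high side of the choice, still differed from M-CSF by between -6.39 (Dab2) and -2.56 (Il7r). For Slamf7 alone the call was lost under 1 alternative, with an adjusted p of 0.115 after values were raised to the brightest background, and the fit in that alternative had almost no variance to pool.

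The position of each PSS1 culture between M-CSF+RANKL (0%) and M-CSF (100%) of the same day puts both distances on 1 scale. PSS1-LMS lay a median of 27.8% of the way on day 6 (range 17.8% to 41.4%) and 25.3% on day 3 (9.72% to 39.1%). PSS1-WT lay at a median of 7.74% on day 6 (-11.1% to 17.5%) and 13.5% on day 3 (-9.06% to 28.6%). Il7r had the highest PSS1-LMS positions, 41.4% and 39.1% on days 6 and 3, followed on day 6 by Clec4d at 34.6% and on day 3 by Pmp22 at 36.9%. Dab2, with the largest distance between M-CSF+RANKL and M-CSF, was at 20.6% and 9.72% in PSS1-LMS cells and at -0.96% and -4.62% in PSS1-WT cells. The PSS1-LMS positions hold the difference that chose the genes and were not tested.

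**Figure D3:**
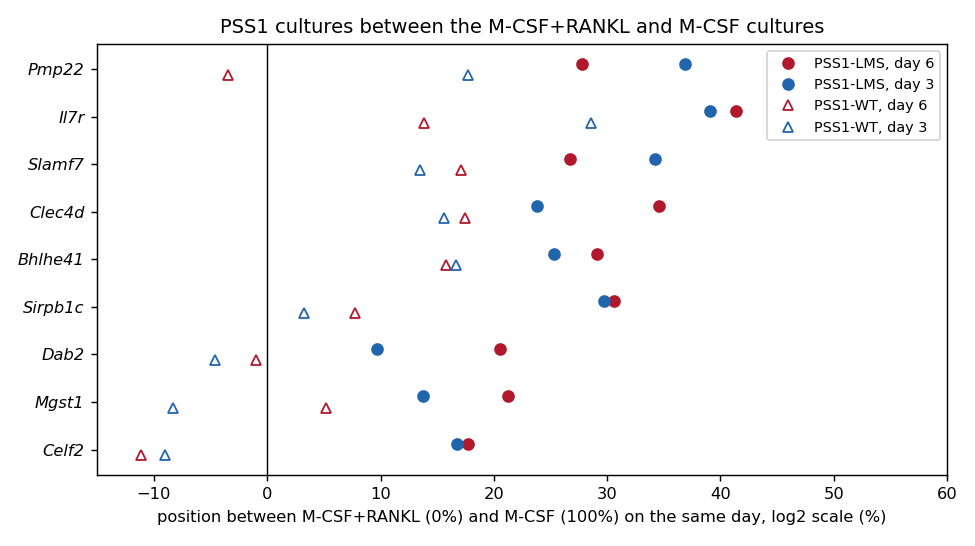
Position of the PSS1-LMS (filled circles) and PSS1-WT (open triangles) arrays between M-CSF+RANKL at 0% and M-CSF at 100% of the same day, on the log2 scale, for each of the 9 genes, with day 6 in red and day 3 in blue. PSS1-LMS lies between 9.72% and 41.4%, and PSS1-WT between -11.1% and 28.6%.

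For comparison with the other genes that RANKL lowered, over the 1334 measured genes outside the group that passed as lower in M-CSF+RANKL than in M-CSF cultures, PSS1-LMS minus PSS1-WT had a median of 0.18, and 49.9% were higher on both days. Over all 10862 measured genes outside the group the median was 0.04 and 33% were higher on both days. The 9 genes had a median of 1.12, which their choice fixed.

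Neither M-CSF+RANKL nor PSS1-WT stood above the other by choice, so the sign of their difference was not fixed and it was tested. Both were low sides of the choice, so the shares of all measured genes given below are only a rough reference for the 9 genes. PSS1-WT minus M-CSF+RANKL averaged 0.94 ± 0.27 for Il7r, 0.83 ± 0.25 for Bhlhe41, 0.82 ± 0.26 for Clec4d and 0.80 ± 0.26 for Slamf7 (limma standard errors), each positive on both days. It was 0.51 ± 0.31 for Pmp22, 0.25 ± 0.24 for Sirpb1c, 0.00 ± 0.29 for Mgst1, -0.21 ± 0.27 for Dab2 and -0.47 ± 0.24 for Celf2. None of the 9 passed after adjustment (lowest limma adjusted p = 0.526, Il7r), against 0.0092% of measured genes, which is Ptdss1 alone. The first 4 had an unadjusted p under 0.05, as did 6.86% of measured genes. Positive on both days were 5 of 9 genes, the first 4 and Sirpb1c, against 18.8% of measured genes. The Pmp22 difference was 1.23 on day 3 and -0.20 on day 6, and without the M-CSF+RANKL day 3 array its average was -0.076. Viral infection and wild-type PSS1 cannot be told apart in this difference unless the M-CSF+RANKL culture had an empty virus, which the labels do not say.

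Day was not part of the choice. Pmp22, Il7r, Slamf7, Clec4d, Bhlhe41 and Celf2 were higher on day 6 than on day 3 in all 4 cultures, a pattern found in 7.77% of measured genes. Sirpb1c was lower on day 6 in all 4 cultures, with differences of -0.32 to -0.073, as were 10.5% of measured genes, and Dab2 and Mgst1 were higher on day 6 in 3 cultures, all but M-CSF+RANKL. The average day 6 minus day 3 was 1.52 ± 0.27 for Pmp22, 1.40 ± 0.50 for Slamf7, 0.90 ± 0.48 for Mgst1, 0.83 ± 0.24 for Il7r, 0.75 ± 0.21 for Clec4d, 0.70 ± 0.20 for Bhlhe41, 0.66 ± 0.21 for Celf2, 0.33 ± 0.23 for Dab2 and -0.23 ± 0.20 for Sirpb1c (limma standard errors). None of the 9 passed after adjustment over all genes (lowest limma adjusted p = 0.124, Pmp22), against 0.285% of measured genes in either direction. An unadjusted p under 0.05 was reached by 6 of 9, against 7.94% of measured genes. Within the 6 RANKL arrays alone Pmp22 (1.58, limma adjusted p = 0.00182) and Il7r (0.98, limma adjusted p = 0.0225) passed, 2 of 9 beside 3.38% of measured genes in that fit. Neutrophil and early monocyte markers also differed by day: the log2 of their summed signal over 13 genes ran from 8.62 to 11.84 over the 4 cultures on day 6 and from 14.25 to 14.93 on day 3. Their part in the day differences was not tested.

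The day change itself differed between the RANKL cultures and the M-CSF culture for 2 of the 9 genes, beside 22.3% of all measured genes. Slamf7 was higher on day 6 by 0.87 in PSS1-LMS, 0.93 in PSS1-WT and 0.25 in M-CSF+RANKL cultures, and by 3.55 in the M-CSF culture. The day change with RANKL minus that in M-CSF was -2.87 ± 0.43 (limma adjusted p = 0.000301). Mgst1 changed by 0.68 in PSS1-LMS, 0.48 in PSS1-WT and -0.43 in M-CSF+RANKL cultures, and by 2.88 in the M-CSF culture, and the difference of day changes was -2.64 ± 0.47 (limma adjusted p = 0.00106). In both genes the day difference was larger without RANKL. For the other 7 genes the difference lay between -0.38 (Celf2) and 0.59 (Il7r) and did not pass, so 2 of 9 were lower against 12.8% of measured genes lower and 22.3% in either direction. The M-CSF day change rests on 1 pair of arrays, assumed to vary like the RANKL cultures, and neither gene passed once values were raised to the brightest background (adjusted p = 0.101 for Slamf7 and 0.177 for Mgst1).

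**Figure D4:**
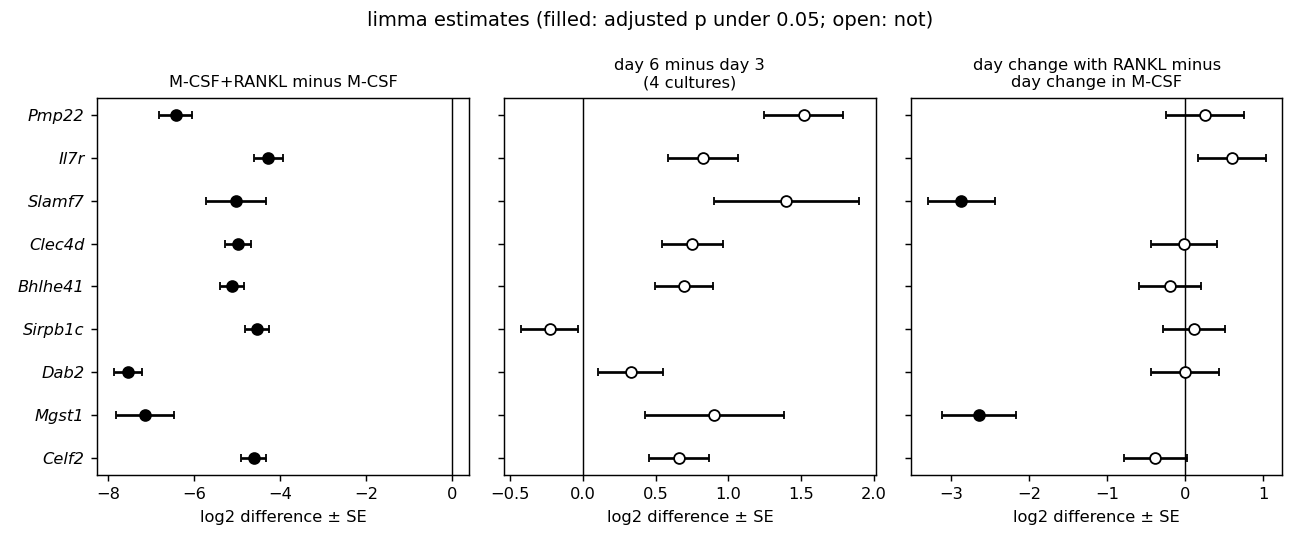
Limma estimates with standard errors (log2, horizontal axes) for the 9 genes in M-CSF+RANKL minus M-CSF, day 6 minus day 3, and the day change with RANKL minus the day change in M-CSF; filled points have an adjusted p under 0.05. All 9 are filled on the left, none in the middle, and Slamf7 and Mgst1 on the right.

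The 9 genes followed each other across the arrays. Over the 36 pairs, Pearson's r across the 8 arrays ran from 0.866 to 0.999 with a median of 0.964, a description that rests mainly on the distance between the 2 M-CSF and the 6 RANKL arrays. Over the 6 RANKL arrays, with each gene centred within its day, r ran from 0.537 to 0.994 with a median of 0.855, and the choice of the genes by their PSS1-LMS values raises it. Among 7793 genes with a range of at least 1 over the 8 arrays, the closest profile was that of Mpeg1 for Bhlhe41 (r = 0.997), Nampt for Dab2 (0.996), C1qb for Celf2 (0.996), Fcgr3 for Mgst1 (0.995), Ctss for Clec4d (0.995), Ampd3 for Pmp22 (0.994), Dync2li1 for Slamf7 (0.994), Helb for Sirpb1c (0.992) and Lyz2 for Il7r (0.988). Dync2li1 lay under the brightest background on all 8 arrays (3.02 to 5.23), and Lyz2 stood at the ceiling of the table in the M-CSF culture on day 6 (19.93), so these profiles are of a dim and a capped signal. The genes closest to the mean profile of the 9 were Pid1, C5ar1, Mpeg1, Igsf6 and Lamp1, with r between 0.994 and 0.997. Mpeg1, a pore-forming protein of macrophages, had 13.68 and 13.13 in PSS1-LMS cultures on days 6 and 3, 13.34 and 12.37 in PSS1-WT, 12.47 and 11.90 in M-CSF+RANKL, and 18.01 and 16.82 in M-CSF cultures. Fcgr3, a receptor for IgG, had 12.32 and 11.55 in PSS1-LMS, 10.53 and 10.60 in PSS1-WT, 10.51 and 10.34 in M-CSF+RANKL, and 18.79 and 16.72 in M-CSF cultures. Both were highest among the RANKL cultures in PSS1-LMS on each day, as were 12.7% of measured genes. They were picked for profiles like those of the 9 genes, which favours this pattern.

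Markers of other cell types were read in the same arrays. Of 14 macrophage markers on the array, Adgre1, C1qb, Mrc1, Ly86 and Msr1 were highest among RANKL cultures in PSS1-LMS on both days, a pattern found in 12.7% of all measured genes. Of the other lists, the markers with this pattern that lay above background on both PSS1-LMS arrays were Mmp8 (1 of 13 neutrophil and early monocyte markers) and Cd4 (1 of 7 T and NK cell markers), and none of 15 osteoclast or 9 dendritic cell markers did. Mmp8, a neutrophil collagenase, had a PSS1-LMS minus M-CSF+RANKL difference of 1.46 ± 0.27 (limma adjusted p = 0.0388), beside 0.156% of measured genes that passed as higher. Mmp8 was named here for being high in PSS1-LMS, so this p is no separate support. It was brightest in the M-CSF cultures, at 11.20 and 13.55 on days 6 and 3. Its M-CSF+RANKL minus M-CSF difference was -4.66 ± 0.38 (limma adjusted p = 0.000106), and 3 of the 12 measured markers of its list were lower with RANKL. The limma adjusted p for Mmp8 was 0.569 without the PSS1-LMS day 6 array, 0.115 without the M-CSF+RANKL day 6 array, 0.079 after centring on array medians and 1 with all 8 arrays in the fit. The log2 of the summed macrophage signal was 16.58 and 16.65 in PSS1-LMS on days 6 and 3, 16.55 and 16.83 in PSS1-WT, 16.47 and 16.79 in M-CSF+RANKL, and 20.08 and 18.79 in M-CSF cultures. The median macrophage marker was at 7.70 and 6.83 in PSS1-LMS, 6.80 and 6.31 in PSS1-WT, 6.85 and 6.81 in M-CSF+RANKL, and 15.55 and 13.12 in M-CSF cultures. Within background were 6 of the 14 in PSS1-LMS cells on each day, 4 and 5 in PSS1-WT and 4 and 6 in M-CSF+RANKL cells on days 6 and 3. In the RANKL cultures the summed macrophage signal was mostly that of Csf1r. Csf1r had 16.39 and 16.52 in PSS1-LMS, 16.44 and 16.75 in PSS1-WT, and 16.37 and 16.72 in M-CSF+RANKL cultures. It was the only macrophage marker that did not pass as lower with RANKL (-0.73 ± 0.33, limma adjusted p = 0.155). The similar sums of the RANKL cultures therefore say little about the other macrophage markers. The median marker was higher in PSS1-LMS than in the other RANKL cultures on each day, though barely on day 3. No macrophage marker passed the limma test in PSS1-LMS minus M-CSF+RANKL or minus PSS1-WT. Osteoclast markers summed to 21.98 and 21.88 in PSS1-LMS, 21.87 and 21.88 in PSS1-WT, and 22.04 and 22.06 in M-CSF+RANKL cultures. These sums rest in large part on Acp5 and Ctsk, which lay near the ceiling of the table (19.93), so they can show little difference. The median osteoclast marker was at 15.53 and 15.10 in PSS1-LMS, 15.53 and 15.22 in PSS1-WT, and 15.94 and 15.93 in M-CSF+RANKL cultures. Of the 15 markers, 14 had a PSS1-LMS minus M-CSF+RANKL difference below 0 (median -0.21), none passing. PSS1-WT minus M-CSF+RANKL also had 14 of 15 below 0 (median -0.20), and PSS1-LMS minus PSS1-WT had 7 above and 8 below 0 (median -0.0020). Markers of B cells, mast cells and stromal cells, and 6 of 7 of T and NK cells, lay within background on all 8 arrays. The part of remaining macrophages in the values of the 9 genes was not tested.

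Genes related to each of the 9 by family or pathway were read beside them. Over the 85 such genes that were measured, PSS1-LMS minus M-CSF+RANKL had a median of 0.01, with 44 above 0. PSS1-LMS minus PSS1-WT had a median of 0.22, with 62 above 0. The median of all measured genes was -0.02 and 0.04, and their share above 0 was not counted. The 1334 genes outside the group that were lower with RANKL had a median of 0.18 for PSS1-LMS minus PSS1-WT. A single related gene passed, Trem2, a lipid-sensing receptor of macrophages and osteoclasts, against 0.156% of measured genes higher. Trem2 had 10.14 and 10.21 in PSS1-LMS cultures on days 6 and 3, 8.67 and 9.43 in PSS1-WT, 8.38 and 8.79 in M-CSF+RANKL, and 14.81 and 13.90 in M-CSF cultures. Both PSS1-LMS arrays were above the other RANKL arrays, and the difference from M-CSF+RANKL was 1.59 ± 0.26 (limma adjusted p = 0.0348). The call was lost under several alternatives, with a limma adjusted p of 0.186 without the PSS1-LMS day 6 array, 0.0695 after centring on array medians and 1 with all 8 arrays in the fit. The Trem2 difference from PSS1-WT was 1.12 ± 0.26 and did not pass (limma adjusted p = 0.256), and none of the 85 genes did, as for 0% of measured genes, of which 773 had an unadjusted p under 0.05.

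**Figure D5:**
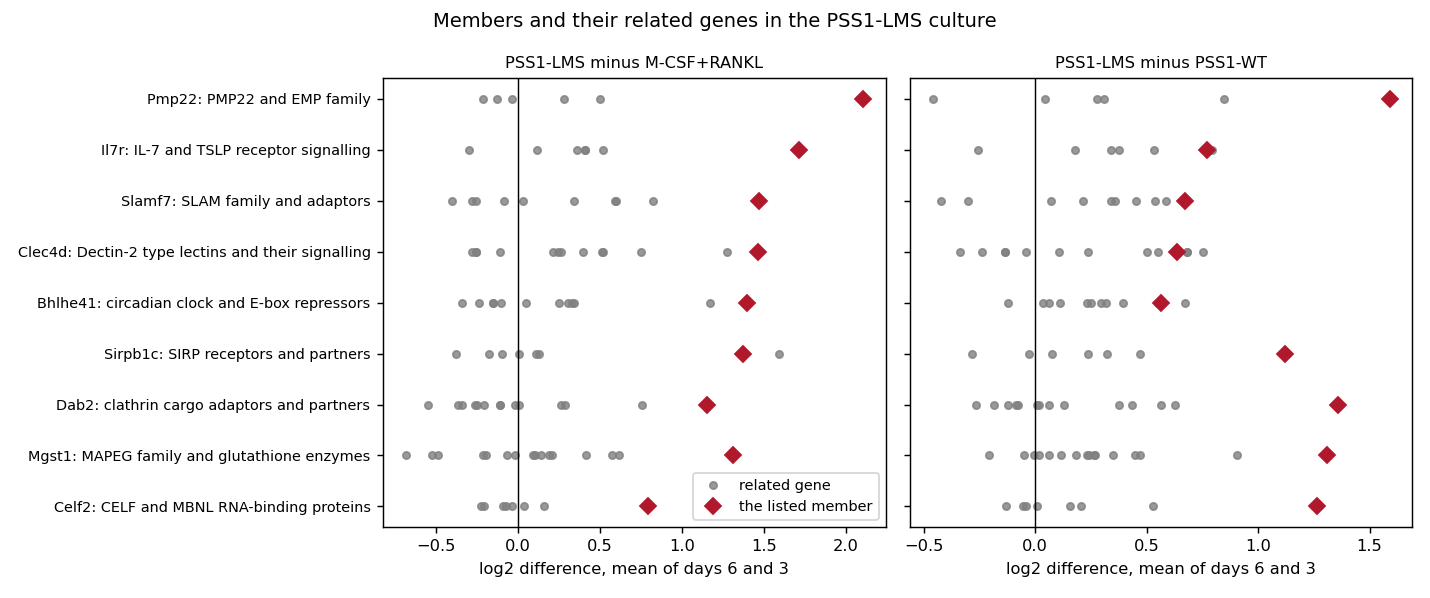
Log2 difference averaged over both days (horizontal axes) for each of the 9 genes (red diamonds, placed by the choice of the genes) and for the measured genes related to it (grey), in PSS1-LMS minus M-CSF+RANKL and PSS1-LMS minus PSS1-WT. The related genes lie around 0 on the left and more often above 0 on the right. Trem2, in the SIRP list, is at 1.59 on the left and at 1.12 on the right, where the Sirpb1c diamond covers it.

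The related genes went both ways with RANKL. Of the 85 related genes, 24 were lower and 13 higher in M-CSF+RANKL than in M-CSF cultures, beside 12.4% lower and 14.1% higher of all measured genes. Both M-CSF+RANKL arrays weigh on these counts. Leaving out either left 1 array on that side, and the numbers lower and higher then fell, as they did over all measured genes. Among the partners of the surface receptors, 3 of 6 IL-7 and TSLP signalling genes were lower, among them the transcription factor Stat5b (-1.71 ± 0.29), and 3 of 9 SLAM genes, led by Cd48 (-3.88 ± 0.31, limma adjusted p = 0.0001). Of 12 genes of the Dectin-2 group 4 were lower, with Clec4e, the partner of Clec4d, at -3.63 ± 0.64, and 1 was higher, the signalling protease Malt1 (2.12 ± 0.29). Of 7 genes in the SIRP list, Trem2 (-5.78 ± 0.42) and Cd47, the ligand of Sirpa (-1.10 ± 0.33), were lower. The Cd47 call was lost after centring on array medians (limma adjusted p = 0.0608) and with PSS1-WT in place of M-CSF+RANKL (limma adjusted p = 0.0735). Leaving out any of the PSS1 arrays also lost the Cd47 call. Without the M-CSF+RANKL day 6 array, most of the lower calls in these lists were lost, all of them among the IL-7 and TSLP and the Dectin-2 genes. Cd48 and Trem2 stayed lower. Stat5b, Clec4e and Cd47 then had a limma adjusted p of 0.0569, 0.0657 and 0.369.

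Among the clathrin genes that work with Dab2, 5 of 13 were lower, with the endocytic receptor Lrp1 at -5.52 ± 0.31 (limma adjusted p = 2.47e-05) and the adaptor Eps15 at -2.77 ± 0.31, and 1 was higher. With either M-CSF+RANKL array left out, 2 of the 13 were lower. The glutathione and MAPEG genes went both ways, 7 of 15 higher and 4 lower, and 4 higher and 2 lower without the M-CSF+RANKL day 6 array. Mgst3, a microsomal relative of Mgst1, was at 2.82 ± 0.34, and Alox5ap, which serves leukotriene synthesis, was at -5.26 ± 0.35. Bhlhe40, the closest relative of Bhlhe41, ran opposite to it. It had 15.42 and 16.14 in PSS1-LMS cultures on days 6 and 3, 15.10 and 15.97 in PSS1-WT, 15.92 and 15.95 in M-CSF+RANKL, and 9.23 and 8.92 in M-CSF cultures, a RANKL difference of 6.86 ± 0.37 (limma adjusted p = 2.06e-05). Of 7 CELF and MBNL genes, Mbnl1, a splicing regulator, was lower (-2.06 ± 0.29) and 2 were higher, and both higher calls were lost when either M-CSF+RANKL array was left out. Of 5 relatives of Pmp22, Emp1 was lower (-1.70 ± 0.47) and Perp was higher (1.48 ± 0.29). Both calls were lost when either M-CSF+RANKL array was left out and after values were raised to the brightest background. The Emp1 difference was -1.19 without the M-CSF+RANKL day 3 array and -2.21 without the day 6 array. Its call was also lost without either PSS1-LMS array.

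The day change differed between RANKL and M-CSF cultures for 27 of the related genes, 9 higher and 18 lower, against 9.49% and 12.8% of measured genes. In the clock list 5 of 11 measured genes passed, all lower, led by Dbp, Per3 and Nr1d1, rhythmic genes of the circadian clock. Dbp, a clock output factor, had 12.49 and 12.04 in PSS1-LMS cultures on days 6 and 3, 11.87 and 11.56 in PSS1-WT, 10.69 and 11.50 in M-CSF+RANKL, and 16.93 and 10.89 in M-CSF cultures, a difference of day changes of -6.06 ± 0.49 (limma adjusted p = 2.04e-06, and 0.0747 after values were raised to the brightest background). The same difference for Bhlhe41 was -0.20 ± 0.40 (limma adjusted p = 0.769). The labels give no hour of collection.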

How the data were processed

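RNA of 8 samples was measured on 1 Affymetrix array each, from biotinylated cDNA of 500 ng RNA per the labels. The authors deposited log2 signals of 28846 features, 22142 of them transcript clusters. That they are log2 values follows from their ceiling at log2 of 1000000. Summarisation and normalization are not given in the sources used here. Every column matched a sample's label (0 columns without one). A single symbol was given for 19572 clusters and 19505 genes, with the brightest cluster taken where a gene had several (55 genes). Measured genes (10871) reached the table's 50th percentile, 4.86, on at least 1 array.

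Differences averaged over days were tested with limma 3.58.1 and R 4.3.3 (lmFit, eBayes, culture plus day, two-sided), with Benjamini-Hochberg adjustment over all measured genes and a threshold of 0.05. Day, RANKL and the difference of day changes used 8 arrays (3, 3 and 2 residual degrees of freedom), and comparisons among RANKL cultures 6 arrays (2). The error covers how culture differences vary between days, or day differences between cultures, but no separate animals or cultures, and the number of arrays limits precision. The fits were tested on simulated data.

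The 9 genes and all gene and marker lists were chosen with earlier results of these data known. Named beside them are the closest profile to each gene, the 5 closest to their mean, the 5 other genes with the largest smallest PSS1-LMS difference, and at most 3 passing genes per family list and comparison. Promoters are RefSeq's (GRCm38.p6). Alternatives were no filter, centring, quantile normalization, raising values to the brightest background, an eBayes trend, leaving out each array, other sets of arrays, and, chosen after seeing the data, only the arrays compared.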

Additional observations from a re-analysis of the deposited data

Results flagged for a closer look

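The day change of Slamf7 differed between the RANKL cultures and the M-CSF culture by -2.87 (log2) and that of Mgst1 by -2.64, each past the limma threshold. That threshold was passed by 22.3% of measured genes in either direction. Neither gene passed once values were raised to the brightest background. The difference of PSS1-WT minus M-CSF+RANKL took opposite signs on the 2 days in a pair of genes, a contrast between days that was not tested. For Pmp22 it was -0.20 on day 6 and 1.23 on day 3, and for Mgst1 it was 0.46 on day 6 and -0.46 on day 3. Groups of 1 array allow no check for outlying samples.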

How the results depend on the processing

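Of the values of the 9 genes under the alternatives, 134 of 135 kept direction and side of the threshold for RANKL, with Slamf7 lost after raising values to the brightest background, 120 of 126 for day, 112 of 117 for PSS1-WT and 85 of 99 for the difference of day changes. Leaving out each array, genes called ranged over 1198 to 4545 for RANKL (2875 with all arrays), 10 to 367 for day (31), 2201 to 3111 for the difference of day changes (2425), 3 to 61 for PSS1-WT minus M-CSF+RANKL (1), 11 to 83 for PSS1-LMS minus M-CSF+RANKL (19) and 0 to 48 for PSS1-LMS minus PSS1-WT (0). Members of the group called ranged over 9 to 9, 0 to 2, 2 to 2 and 0 to 0 in the first 4. The number for day without either M-CSF array is that of the RANKL arrays alone, 367 genes, 2 of them in the group (Pmp22 and Il7r). Raising values to the brightest background left 1136 genes for RANKL, 2 for day, 1074 and 0 of the group for the difference of day changes, 0 for PSS1-WT and 0 for PSS1-LMS minus M-CSF+RANKL; many values are then equal and the fit pools almost no variance. With an eBayes trend the counts were 2 for PSS1-WT, 43 for PSS1-LMS minus M-CSF+RANKL and 7 for PSS1-LMS minus PSS1-WT. With only the 4 arrays compared they were 18, 59 and 36. PSS1-LMS minus M-CSF+RANKL had 2 genes with no filter and 1 each with centring, quantile normalization or all arrays in the fit. Elsewhere the cause was not tested. The differences that changed sign were small, and none passed the threshold. The difference of day changes became 0.32 for Clec4d and 0.20 for Dab2 with quantile normalization, and leaving out each array it ranged from -0.20 to 0.11 for Clec4d, -0.25 to 0.19 for Dab2 and -0.14 to 0.58 for Pmp22 (values that turned sign include 0.040 for Clec4d and 0.054 for Dab2 without a PSS1-WT array). PSS1-WT minus M-CSF+RANKL became -0.049 for Mgst1 with centring, and leaving out each array it ranged from -0.51 to 0.51 for Mgst1, -0.076 to 1.10 for Pmp22 and -0.49 to 0.079 for Dab2. The difference of day changes could not be fitted without an M-CSF array. No paired analysis was possible because each group has 1 array and no replicate numbers to pair; day is already a term of each fit.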
